A study of Mus musculus with 4 samples.

Results

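The nuclear genes for subunits of the mitochondrial respiratory chain and of ATP synthase were described in 4 RNA-seq libraries of mouse regulatory T cells. They were chosen by a rule on symbols that uses no measured value, though earlier results of these data were known when they were chosen. The rule takes rows whose symbol begins with Nduf plus a subunit letter and number, Uqcr, Cox4 to Cox8 or Atp5. It also takes Sdha, Sdhb, Sdhc, Sdhd, Cyc1 and Cycs. This gave 90 genes of the 50600 rows in each file, of which 86 are annotated as protein coding and 4 as processed pseudogenes (Ndufs6b, Ndufb4c, Ndufa11b and Cox6c2), and 6 further rows with -ps in the symbol were left out. The pattern is not a full list of subunits. It takes Atp5s, which is not a subunit of ATP synthase, and misses Ndufab1, a subunit of complex I.

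All 4 libraries belong to 1 group, primary regulatory T cells of strain C57BL/6NJ, numbered as biological replicates 1 to 4. No treatment, genotype, age or sex is given, so no comparison between conditions can be made, and every comparison here is between genes within a library or between the 4 libraries. A linked protocol covers differentiation of CD4+ T cells, and the file headers carry the words activated bulk and 72h, whose meaning the labels do not explain. The assay is called total RNA-seq while the linked library protocol is for polyadenylated RNA. All 4 carry the same donor identifier, and the labels do not say whether they came from separate animals. Xist, the RNA made from the inactive X chromosome of female cells, stood at 173 and 199 TPM in replicates 1 and 2 and at 0.592 and 0.758 TPM in replicates 3 and 4, so the 4 libraries were not all made from cells of 1 animal. How many animals were used is not known, and any p-value reflects the spread of these libraries alone.

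The respiratory chain passes electrons from NADH (complex I) and succinate (complex II) through ubiquinone to complex III, then by cytochrome c to complex IV, which reduces oxygen. Complexes I, III and IV pump protons across the inner mitochondrial membrane, and ATP synthase (complex V) uses the return flow to make ATP. Most subunits are encoded in the nucleus and a few in mitochondrial DNA, and several nuclear subunits of complex IV have tissue-restricted isoforms, such as those of heart and muscle. Regulatory T cells, which restrain immune responses and depend on the transcription factor Foxp3, are known to use oxidative phosphorylation.

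Total counts were 121477975, 62472060, 73690296 and 51460018 in replicates 1 to 4. Counting intervals and the limits set by a count of 0 cover counting error only. The label regulatory T cell matched its markers: all 5 regulatory T cell markers, Foxp3 among them at 448 ± 27.8 TPM (SD, n = 4), and all 5 general T cell markers were at 1 TPM or more in every library. Among the 5 muscle markers, Myh6 was at 0 counts in every library and Tnnt2 was highest at 3.20 ± 0.75 TPM. Summed levels were 2.87 to 4.31 TPM for B cell markers, 1.77 to 3.41 TPM for macrophage and monocyte markers, and 8.70 to 13.4 TPM for the pair of CD8 T cell markers, of which Cd8a was at 0.243 ± 0.046 TPM. Replicate 2 stood apart: the chi-square of counts over genes, per degree of freedom, was largest in the pairs of libraries that hold it, so the spread of these genes is given with and without it below.

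Levels are in TPM, a gene's counts per base of its merged exon length, brought to a common total for every library. Of the 90 genes, 81 were at 1 TPM or more in all 4 libraries, against 48.9% of all 21764 protein-coding genes. A mean of 100 TPM or more was reached by 59 genes, against 9.62% of all protein-coding genes and 19.7% of those at 1 TPM or more in every library. The median gene of the 90 stood at 154 TPM, and the median protein-coding gene at 1 TPM or more stood at 32.5 TPM. Together the 90 genes took 1.10%, 1.02%, 1.09% and 1.09% of all counts in replicates 1 to 4. In bulk samples fewer cells and less RNA per cell cannot be told apart, and levels here describe the mean of all cells in a library.

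**Figure D1:**
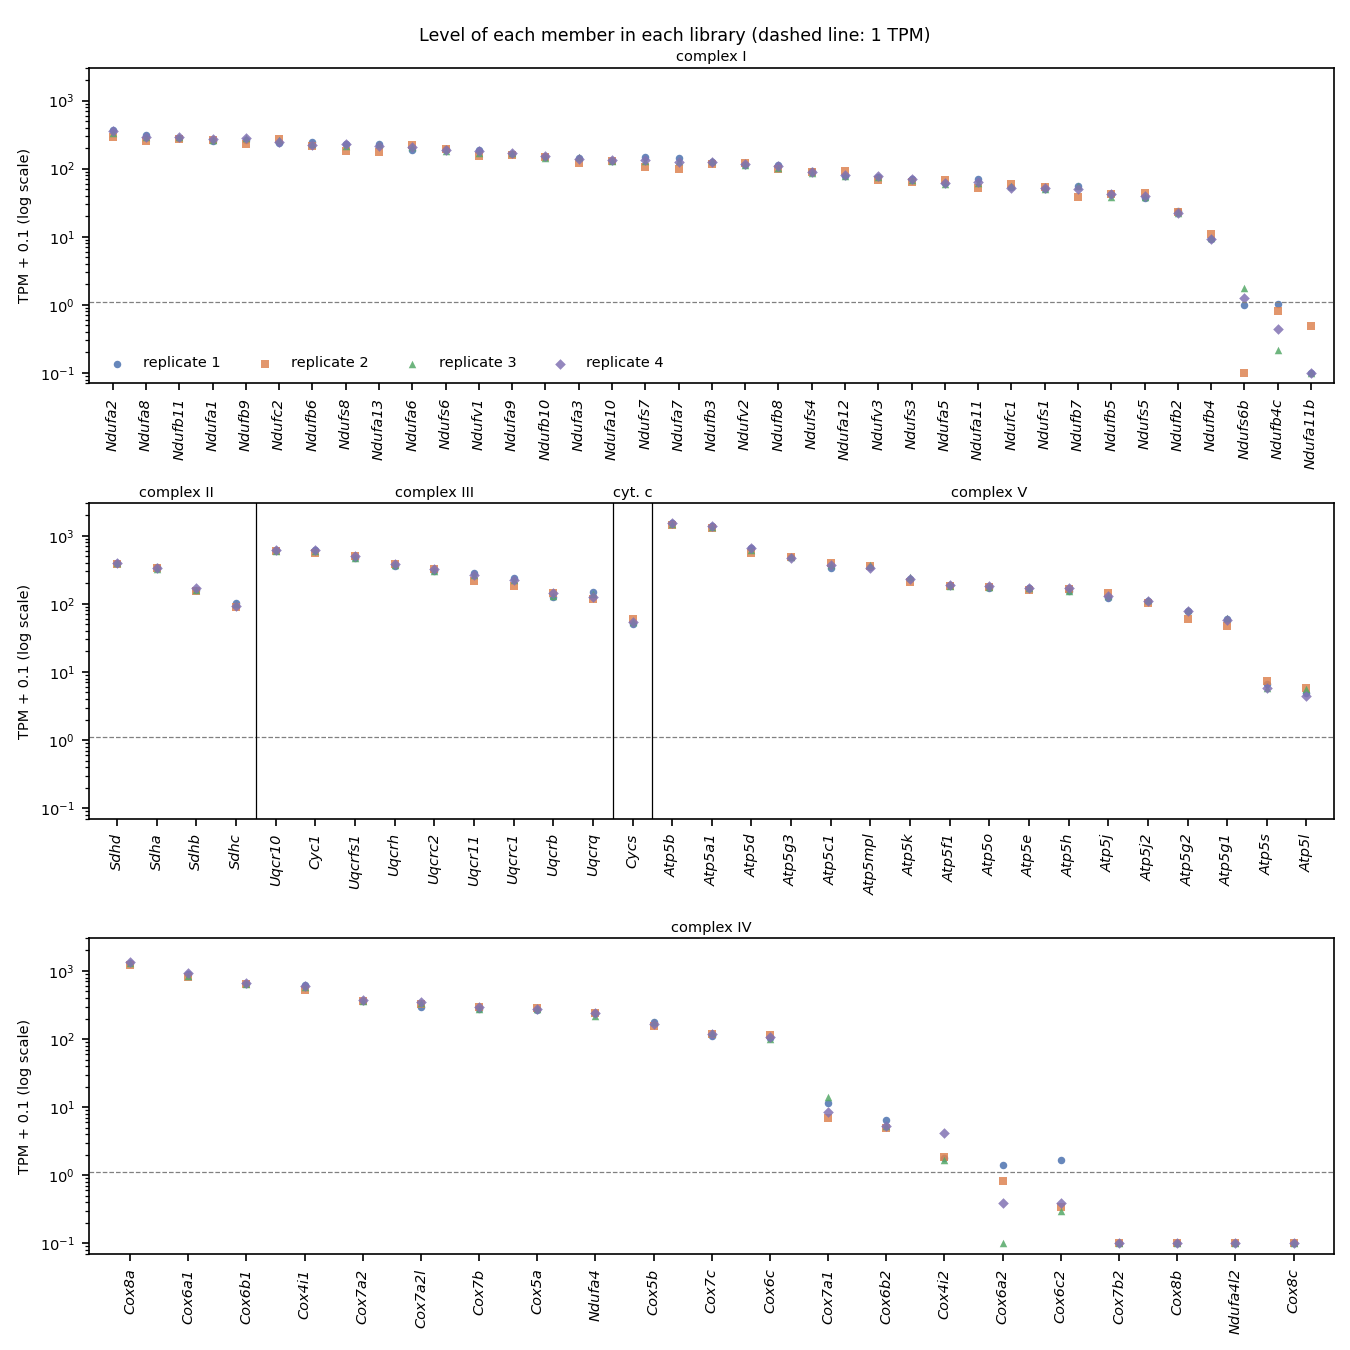
TPM + 0.1 (log scale) of the genes in each library, grouped by complex and ordered by mean, with 1 marker shape per replicate. The 4 markers of a gene lie close together for most genes at 1 TPM or more, Cox7a1 and Cox4i2 being wider, and 4 genes of complex IV lie at the bottom with 0 counts in every library.

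Complex I, NADH dehydrogenase, was the largest group with 38 genes, of which 35 were protein coding and the same number were at 1 TPM or more in every library. Its median was 126, 112, 130 and 126 TPM in replicates 1 to 4. With merged lengths Ndufa2 was highest at 340 ± 33.8 TPM, and Ndufa8 was also among the highest at 287 ± 24.7 TPM. This order depended on the length used. With the longest principal transcripts Ndufa2 stood at 238 TPM and Ndufa8 at 201 TPM, below Ndufb8 at 344 TPM, which had 106 TPM with its merged length. Ndufs1, the largest iron-sulfur subunit of the electron input module, was lower, at 49.6, 54.6, 50.2 and 52.1 TPM in replicates 1 to 4. Its mean was 110 TPM with the longest principal transcript. The lowest protein-coding gene was Ndufb4 at 9.65 ± 0.80 TPM, and the levels of the 35 genes spanned 35.2-fold with merged lengths. Of the 50-base windows of Ndufb4's principal transcript, 37.0% also occur in annotated transcripts of other genes, so its level and this span are uncertain. All 3 genes of the group under 1 TPM in some library were pseudogenes. Ndufs6b had 11, 0, 13 and 6 counts, Ndufb4c had 13, 5, 1 and 2 counts, and Ndufa11b had counts in replicate 2 only, 3 of them.

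Ndufv1 and Ndufv2 encode the pair of subunits that take electrons from NADH. Ndufv1 stood at 189, 154, 172 and 184 TPM and Ndufv2 at 111, 122, 113 and 119 TPM, so the groups of 4 values did not overlap. The difference of log2(TPM + 0.1), Ndufv1 minus Ndufv2, was 0.58 ± 0.18 (SD, n = 4), with the same sign in 4 of 4 libraries, and the gap was narrowest in replicate 2, at 0.34. With 4 libraries the exact two-sided sign-flip permutation test cannot give less than 2 of 16 sign assignments as extreme, and each of the 20 pairs examined here gave 2 of 16, so no pair could pass 0.05 and sizes are given against their spread.

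Complex II, succinate dehydrogenase, has 4 subunits, all encoded in the nucleus, and all 4 genes were at 1 TPM or more, with a group median of 249 TPM. Sdha, the flavoprotein that oxidises succinate, stood at 350, 332, 321 and 341 TPM. Sdhb, the iron-sulfur subunit that it hands electrons to, stood at 162, 152, 161 and 170 TPM. Sdha was higher by 1.06 ± 0.07 on the log2 scale, a difference larger than its spread, and by 0.51 with the principal transcript lengths.

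Both membrane anchors of complex II were expressed, at different levels. Sdhc stood at 101, 89.4, 98.0 and 94.2 TPM and Sdhd at 395, 386, 395 and 399 TPM. Sdhc minus Sdhd was -2.04 ± 0.07 on the log2 scale. Sdhd had the smallest coefficient of variation (SD over mean) of all the genes at 5 TPM or more, 1.43%.

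Complex III, which moves electrons from ubiquinol to cytochrome c, was represented by 9 genes, all at a mean of 100 TPM or more. The group median was 315 TPM and its levels spanned 4.58-fold, from Uqcrq at 133 ± 13.5 TPM to Uqcr10 at 611 ± 12.1 TPM. Cyc1, the cytochrome c1 that passes electrons on, stood at 597 ± 34.2 TPM, and Uqcrfs1, the Rieske iron-sulfur protein, at 484 ± 16.1 TPM. Uqcrc1 and Uqcrc2 encode the core pair of the matrix side. Uqcrc1 stood at 241, 185, 223 and 223 TPM and Uqcrc2 at 300, 325, 306 and 327 TPM. The difference, Uqcrc1 minus Uqcrc2, was -0.53 ± 0.21 on the log2 scale in TPM, but it changed sign with the length used, to 0.36 with the length of the longest principal transcript and 0.16 in CPM, which takes counts over the library total with no length, so no order of this pair can be given.

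Cytochrome c itself, the small carrier between complexes III and IV that also triggers apoptosis when released, was far lower than the subunit that feeds it. Cycs stood at 50.5, 59.2, 54.6 and 54.5 TPM. Cyc1 stood at 621, 551, 590 and 625 TPM. Cycs minus Cyc1 was -3.45 ± 0.17 on the log2 scale. Cycs has many annotated near-copies: 28.5% of the 50-base windows of its principal transcript also occur in annotated transcripts of other genes elsewhere in the genome, so a read from them cannot be placed with certainty, and its level is uncertain.

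Complex IV, cytochrome c oxidase, held 3 of the most abundant genes and all 4 genes with 0 counts in every library. The 21 genes counted with it, Ndufa4 and Ndufa4l2 among them, had a median of 118 TPM, but 15 of them were at 1 TPM or more in every library and those had a median of 276 TPM. Cox8a was highest at 1297 ± 46.4 TPM, followed by Cox6a1 at 874 ± 51.2 TPM and Cox6b1 at 651 ± 10.9 TPM. The 4 genes without counts were Cox7b2, Cox8b, Cox8c and Ndufa4l2. The limit that a count of 0 allows, taken as 3 counts, was at most 0.552 TPM for Cox8b, 0.418 TPM for Cox8c, 0.367 TPM for Cox7b2 and 0.182 TPM for Ndufa4l2, each in replicate 4, the shallowest library.

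In most isoform pairs of complex IV a single gene held nearly all of the level. Cox4i1, the widely expressed form of subunit 4, stood at 626, 531, 585 and 606 TPM. Cox4i2, the form known from lung and from low oxygen, stood at 1.70, 1.76, 1.55 and 4.12 TPM. The difference was 8.06 ± 0.61 on the log2 scale, with Cox4i2 highest in replicate 4, and 8.95 with the longest principal transcripts.

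Subunits 6a and 7a have a form enriched in heart and skeletal muscle, Cox6a2 and Cox7a1. Cox6a1 stood at 909, 816, 845 and 924 TPM, and Cox6a2 had 32, 9, 0 and 3 counts, or 1.32, 0.732, 0 and 0.292 TPM. Cox7a2 stood at 362, 357, 364 and 378 TPM, and Cox7a1 at 11.3, 6.93, 14 and 8.43 TPM. The muscle-type gene was thus below its partner in 4 of 4 libraries in both pairs, by 10.88 ± 1.64 and 5.20 ± 0.45 on the log2 scale, and Cox7a1 was the only one of them above 5 TPM. Since Cox6a2 had 0 counts in replicate 3, its difference depends on the pseudocount: it was 9.18 with a pseudocount of 1 and 10.15 without replicate 3. The summed muscle markers were 4.33, 3.40, 5.34 and 3.97 TPM, which puts the libraries in the same order as Cox7a1 does. Most of this sum was Tnnt2, at 3.13, 2.48, 4.24 and 2.93 TPM. Actn2 gave the same order, and Ckm gave another, at 0.250, 0.133, 0.140 and 0.228 TPM. Myh7 also gave another order, at 0.059, 0, 0.005 and 0 TPM. Cox6a2, the other muscle-type gene, was at 0 in replicate 3, where Cox7a1 was highest. The part of these markers in the level of Cox7a1 was not tested.

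Cox7a2l, related to Cox7a2 and known for its place in supercomplexes of complexes III and IV, stood at 293, 326, 333 and 349 TPM. The difference from Cox7a2 was only 0.17 ± 0.09 on the log2 scale. It was -0.11 in CPM without a length, so this pair too has no order that holds on both scales. Cox6b1 stood at 646, 639, 651 and 665 TPM, and Cox6b2, the form known from testis, at 6.44, 4.89, 5.12 and 5.21 TPM, a difference of 6.89 ± 0.18, or 5.84 with the shortest principal transcripts.

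The other 3 isoform families of complex IV had 1 gene with counts and the rest without. Cox8a stood at 1293, 1238, 1309 and 1350 TPM, at least 2443-fold higher than Cox8b, the muscle form, and at least 3230-fold higher than Cox8c, where the bound is the lowest over libraries against 3 counts per library. Cox7b stood at 276, 300, 280 and 291 TPM, at least 793-fold higher than Cox7b2. Ndufa4, first described in complex I and since placed in complex IV, stood at 237, 241, 221 and 238 TPM, at least 1311-fold higher than Ndufa4l2, a gene induced in low oxygen. Subunits 5a and 5b, which are not isoforms of each other, were both well expressed. Cox5a stood at 264, 289, 273 and 277 TPM and Cox5b at 177, 157, 178 and 164 TPM, a difference of 0.71 ± 0.14 on the log2 scale that was 1.57 with the principal transcript lengths. The remaining pseudogene, Cox6c2, had 13, 1, 1 and 1 counts.

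**Figure D2:**
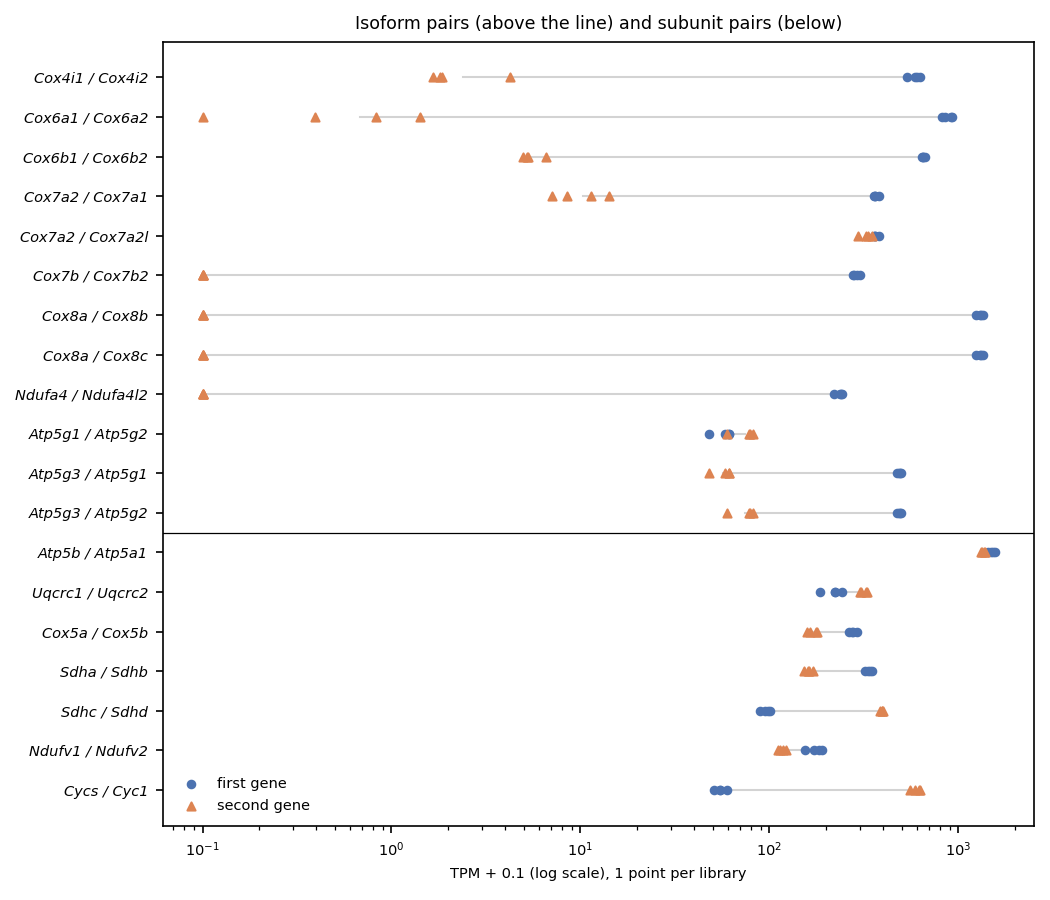
TPM + 0.1 (log scale) of both genes of the isoform and subunit pairs, 1 point per library, with a grey line between the means. The second gene of 4 isoform pairs lies at 0 counts in all libraries, and the points of Cox7a2 and Cox7a2l and of Atp5b and Atp5a1 lie close together.

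Complex V, ATP synthase, had all 17 genes counted with it at 1 TPM or more, among them Atp5s, which is not a subunit. It took 0.492 ± 0.016% of all counts, the largest share of the 5 complexes. That share is not corrected for length, and summed TPM lay closer together. In replicate 1 the sums were 6074 TPM for complex V, 5320 TPM for complex IV and 5240 TPM for complex I. Atp5b, the catalytic beta subunit (GRCm38 chr10:128083273-128090391, plus strand), was the highest of the 90 genes, at 1555, 1433, 1479 and 1531 TPM. Atp5a1, the alpha subunit that alternates with it in the ring, stood at 1380, 1319, 1329 and 1373 TPM. The difference was 0.15 ± 0.02 on the log2 scale, with the same sign in 4 of 4 libraries and larger than its spread, and it was 0.95 with the principal transcript lengths, so its size depends on the length used. Atp5d, the delta subunit of the central stalk, followed at 619 ± 47.0 TPM. Atp5l was lowest at 5.09 ± 0.67 TPM, but its merged exon length is 11.8 times that of its principal transcript. With the longest principal transcripts Atp5l stood at 42.2 TPM, above Atp5s at 4.11 TPM.

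The c subunit, which forms the rotating membrane ring, is made from 3 genes, Atp5g1 (GRCm38 chr11:96068852-96075670), Atp5g2 (chr15:102662864-102672352) and Atp5g3 (chr2:73908447-73911326), all on the minus strand, whose mature proteins are the same while the import sequences that are cut off differ. To show how alike the transcripts are where the shared ring protein is encoded, the last 120 coding bases before the stop codon are given 5′ to 3′, from the GENCODE M21 transcripts on GRCm38, with capitals at the positions where the 3 genes are not all the same.
Atp5g1: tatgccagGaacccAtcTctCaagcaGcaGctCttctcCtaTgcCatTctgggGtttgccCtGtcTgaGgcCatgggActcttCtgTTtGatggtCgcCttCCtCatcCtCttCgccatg
Atp5g2: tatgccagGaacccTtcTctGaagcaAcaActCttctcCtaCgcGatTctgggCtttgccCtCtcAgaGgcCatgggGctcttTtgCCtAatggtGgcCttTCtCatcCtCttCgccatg
Atp5g3: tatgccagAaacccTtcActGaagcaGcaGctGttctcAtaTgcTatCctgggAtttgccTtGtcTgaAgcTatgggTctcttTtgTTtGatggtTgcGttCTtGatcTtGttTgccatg

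These stretches differ at 30 of 120 positions, 26 of them at the third position of a codon. Over the last 225 coding bases before the stop codon the identity was 84.9% for Atp5g1 and Atp5g2, 80.0% for Atp5g1 and Atp5g3 and 78.7% for Atp5g2 and Atp5g3. Before that section, where the import sequence is encoded, it was 52.2% to 56.8%.

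Among the c subunit genes, Atp5g3 had the highest level in the reads that were counted. It stood at 495, 486, 489 and 473 TPM, Atp5g2 at 78.2, 59.3, 81.5 and 78.5 TPM, and Atp5g1 at 60.7, 47.6, 61.1 and 57.9 TPM. Of the summed TPM of the 3 genes, Atp5g3 held 78.8 ± 2.14%, Atp5g2 12.0 ± 1.38% and Atp5g1 9.19 ± 0.78% (SD, n = 4). Atp5g3 was above Atp5g1 by 3.10 ± 0.17 and above Atp5g2 by 2.72 ± 0.21 on the log2 scale, in 4 of 4 libraries. The first of these ranged from 1.67 to 4.63 between the shortest and the longest principal transcripts.

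The order of the minor pair depended on the length used. Atp5g1 minus Atp5g2 was -0.38 ± 0.06 with merged lengths, but 0.73 with the shortest principal transcript and 1.17 in CPM without a length. With the shortest principal transcripts the shares were 66.5% for Atp5g3, 20.9% for Atp5g1 and 12.6% for Atp5g2, and with the longest they were 86.5% for Atp5g3 and 3.49% for Atp5g1. Atp5g3 led under each of these lengths. Atp5g2 shares 87.4% of its 50-base windows with annotated copies such as Gm10175, while Atp5g3 shares none, so the level of Atp5g2 is uncertain whatever the length. Reads that map to several places were not counted. The share of Atp5g2 may therefore be too low and that of Atp5g3 too high, by an amount that was not tested.

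Length and near-copies limited the levels of other genes too. Merged exon length counts every annotated exon, and some genes with a long merged length moved on the principal transcript. Cox6c was at 106 TPM with the merged length, 358 TPM with the longest principal transcript and 474 TPM with the shortest. Ndufb2, an accessory subunit of complex I, was at 22.8 TPM with the merged length and 20.5 TPM with the longest principal transcript. It stood at 178 TPM only with the shortest, so its level depends on which principal transcript is taken. Complex medians moved by over 1.5 times for complex IV (118 to 212 TPM) and complex V (178 to 334 TPM) with the longest principal transcript. The order of the complexes by median is therefore not fixed by these data. Of the 81 genes at 1 TPM or more, 45 shared no 50-base window with an annotated transcript of another locus (copies outside the annotation were not searched), 19 shared over 10% and 3 shared over 50%, which were Atp5g2, Atp5l and Cox7c.

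**Figure D3:**
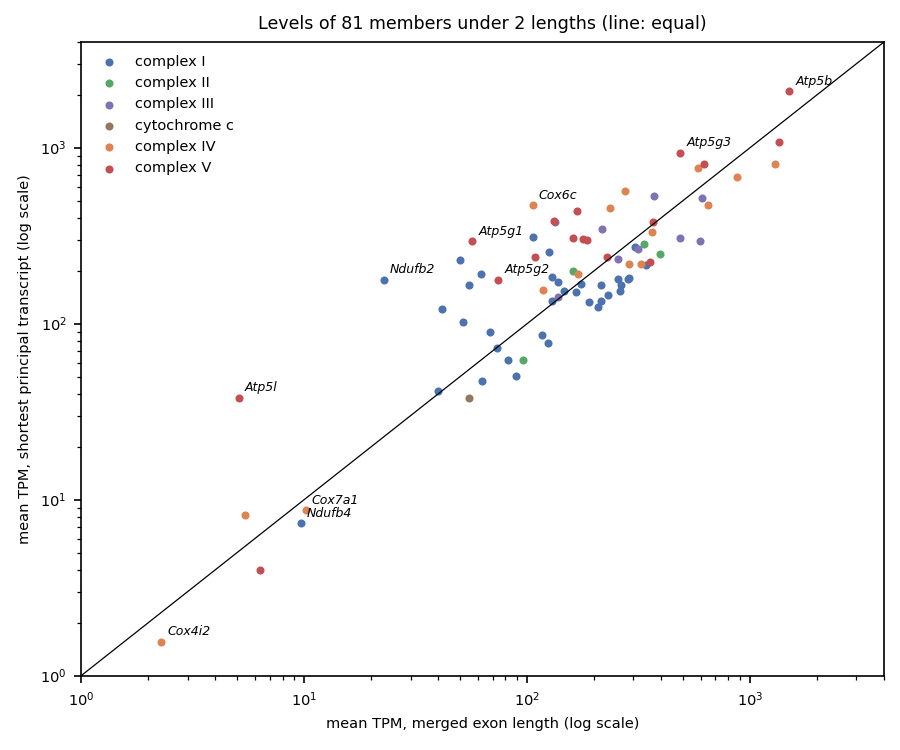
Mean TPM of the 81 genes at 1 TPM or more with the merged exon length (horizontal, log scale) and with the shortest principal transcript (vertical, log scale), coloured by complex, with a line where both are equal. Atp5l and Ndufb2 lie far above the line, while Atp5b stays at the top on both axes.

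Variation between the libraries was tested gene by gene. The test asked whether a gene's spread exceeds that of genes of like abundance (edgeR quasi-likelihood dispersion over its trend, Benjamini-Hochberg adjustment over 13625 genes). It called 0 of the 81 genes tested, against 0.00734% of all genes, so this count does not set them apart. The gene called was Xist alone, which splits the libraries into replicates 1 and 2 against replicates 3 and 4. With 4 libraries, a gene that is not called is not thereby shown to vary little. The lowest adjusted p among the 81 was 0.965. At an unadjusted p under 0.05 the test marked 2 of the 81, Ndufb7 and Ndufa7, or 2.47%, against 4.7% of all genes. That count depended on the setting: edgeR marked 6 of the 81 with upper quartile scaling (4.54% of all genes), 11 of 86 with no filter beyond 1 count (6.34% of all genes, lowest adjusted p 0.133) and 1 of 81 without replicate 2 (5.60% of all genes). DESeq2's dispersion outliers (0.316% of all genes) and limma-trend also held 0 of the 81, as did edgeR with no filter beyond 1 count (0.424% of all genes) and without replicate 2 (0.129%). The remaining 9 genes did not pass the filter on low counts and were not tested.

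The steadiest genes at 5 TPM or more were Sdhd, Ndufa10 and Cox6b1, with coefficients of variation of 1.43%, 1.53% and 1.68%. Ndufa10, an accessory subunit of complex I, stood at 128, 128, 131 and 132 TPM. The largest coefficients were 30.8% for Cox7a1, 16% for Ndufb7, 15.3% for Ndufa7, 13.7% for Atp5g2 and 13.1% for Atp5l. Ndufb7 stood at 56.0, 38.5, 54.9 and 50.7 TPM, Ndufa7 at 146, 99.5, 131 and 127 TPM, and Atp5l at 4.85, 5.71, 5.53 and 4.26 TPM. Of these 5 genes, all but Atp5l were lowest in replicate 2. Without replicate 2 the coefficient was 5.16% for Ndufb7, 7.38% for Ndufa7, 2.30% for Atp5g2 and 0.505% for Sdhd, while Cox7a1 (24.8%) and Atp5l (13%) moved less. The ratio of a gene's dispersion to that of genes of like abundance fell with it. The ratio went from 7.42 to 1.58 for Ndufb7, from 6.40 to 2.27 for Ndufa7 and from 4.41 to 0.373 for Atp5g2. Ndufb7, Ndufa7 and Atp5g2 were named for large coefficients and were furthest from their means in replicate 2. A fall without that library therefore follows from how they were picked.

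Replicate 2 was the lowest of the 4 libraries in log2 CPM for 50 of the 81 genes (61.7%), against 35.3% of all genes tested. It was the highest for 14 (17.3%), against 34.3%. Its median deviation from the mean of the 4 libraries was -0.07 over the 81 genes, and every complex shared the direction, with medians from -0.10 in complex II to -0.07 in complexes III, IV and V. The median SD over libraries was 0.08 log2 units for the 81 genes and 0.14 for all genes tested, which are not matched in abundance. The median ratio of a gene's dispersion to that of genes of like abundance was 0.589 for the 81 genes and 0.878 for all genes tested. Without replicate 2 the median SD of the 81 genes was 0.05, and that of all genes was not computed.

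The deviation of replicate 2 moved with the base composition of the transcripts. Among the 46 genes whose principal transcript has a GC content above 50.3%, the median of all genes tested, replicate 2 was below the mean in 41, with a median deviation of -0.14. Among the 35 genes at or below it, replicate 2 was below the mean in 17, with a median of 0.00. All genes tested showed the same direction, with replicate 2 below the mean in 70.5% of genes above the median GC content and 29.9% of the others. Pearson's r between GC content and the deviation of replicate 2, over genes that share the library, was -0.62 for the 81 genes and -0.35 for 13603 genes. After each library's trend over GC content was removed, replicate 2 was still lowest for 48 of the 81 genes (59.3%), against 31.9% of all genes. The cause of the lower values was not tested.

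**Figure D4:**
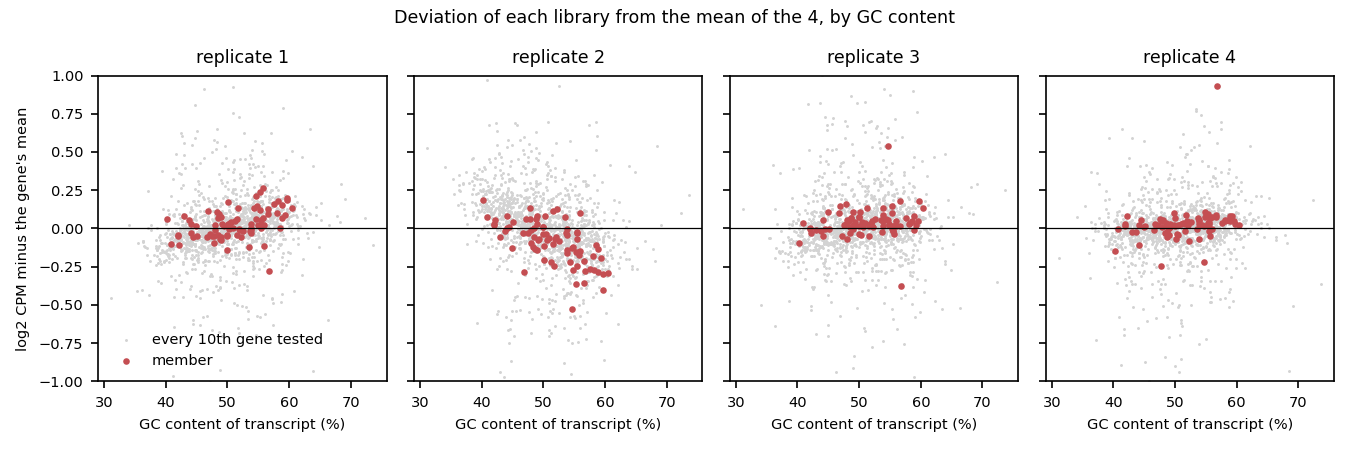
Deviation of log2 CPM from the mean of the 4 libraries against GC content of the principal transcript (%), 1 panel per replicate, with the 81 genes in red and every 10th of all genes tested in grey, of which those beyond 1 log2 unit are not drawn. In replicate 2 the red points slope down to the right, and at high GC content nearly all lie below 0.

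The mitochondrially encoded subunits went the other way. Of 13 such genes, 8 were at 1 TPM or more and tested. Among these edgeR called 0, against 0.00734% of all genes, and 7 had an unadjusted p under 0.05, against 4.7% of all genes. Their median deviation was 0.25 in replicate 2 and -0.26 in replicate 1. mt-Co1, the catalytic core of complex IV, stood at 4780, 7155, 6150 and 5351 TPM, the highest level of all genes examined here in each library. mt-Nd1 (complex I) followed at 3229 ± 544 TPM and mt-Cytb (complex III) at 2891 ± 505 TPM. Mitochondrial genes took 0.529%, 0.780%, 0.692% and 0.603% of counts in replicates 1 to 4. Counts on mt-Co2, mt-Co3 and mt-Atp6 were 10 or fewer in every library and those of mt-Nd4l and mt-Atp8 were 0, beside 124708 or more for mt-Co1, so these files hold no usable level for them. The reason was not tested.

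Other nuclear genes of the pathway were mostly present at lower levels than the subunits. The assembly factors of complex I had a median of 30.4 TPM, with all 16 found at 1 TPM or more. They were led by Tmem70, which helps assemble complexes V and I, at 113 ± 7.73 TPM, Timmdc1 at 62.2 ± 2.32 TPM and Ndufaf2 at 52.9 ± 2.44 TPM, and Nubpl, which delivers iron-sulfur clusters, was lowest at 5.38 ± 0.59 TPM. Complex II factors (4 of 4 at 1 TPM or more) had a median of 30.9 TPM, led by Sdhaf2, which adds the flavin to Sdha, at 55.6 ± 4.70 TPM, then Sdhaf1 at 43.9 ± 1.95 TPM and Sdhaf4 at 17.8 ± 1.45 TPM, with Sdhaf3 lowest at 3.23 ± 0.17 TPM. Complex III factors (6 of 6) ranged from Lyrm7 at 2.15 ± 0.57 TPM through Uqcc1 at 21.2 ± 1.69 TPM and Uqcc3 at 91.6 ± 10.5 TPM to Uqcc2 at 146 ± 9.59 TPM. Complex IV factors (21 of 22) were led by Cox14 at 137 ± 11.4 TPM, Coa3 at 125 ± 8.84 TPM and Coa5 at 83.9 ± 5.81 TPM, and Pet117 had 0 counts in every library. ATP synthase factors (4 of 4) had a median of 62.2 TPM, from Atpaf1 at 12.2 ± 0.84 TPM through Fmc1 at 51.7 ± 4.03 TPM and Tmem242 at 72.6 ± 2.02 TPM to Atpaf2, a chaperone of the alpha subunit, at 76.3 ± 3.36 TPM. The edgeR spread test called 0 genes of these lists, with 0 at an unadjusted p under 0.05, against 0.00734% and 4.7% of all genes.

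Carriers that serve ATP synthase were abundant. Slc25a5, an exchanger of ADP and ATP, stood at 1520 ± 39.7 TPM and its relative Slc25a4 at 464 ± 24.4 TPM. Ucp2, a mitochondrial carrier of the uncoupling protein family, stood at 485 ± 51.3 TPM, while Ucp3, known from muscle, was at 0.039 ± 0.047 TPM. Among nuclear regulators, Yy1 stood at 144 ± 24.6 TPM, Pprc1 at 107 ± 4.74 TPM and Polg, the mitochondrial DNA polymerase, at 68.1 ± 2.87 TPM. Ppargc1a, a coactivator known to raise mitochondrial genes in muscle and fat, and Esrrg had 0 counts in every library. Of the 9 carriers and 14 regulators tested edgeR called 0, with 1 in each list at an unadjusted p under 0.05, against the 4.7% of all genes given above. Ndufab1 stood at 18.1 ± 0.96 TPM and Cyct, the testis form of cytochrome c, had 0 counts.

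Promoters were examined for the letters of 2 factors known for respiratory genes, NRF1 (the 10 letters printed in capitals below, which read the same on both strands) and ETS factors such as GABPA (CCGGAAG, both strands). RefSeq promoters on GRCm38.p6 were matched for 69 of the 86 protein-coding genes (80.2%), and the 250 bases before the start were searched. The NRF1 letters were in 4 of 69 (5.80%), against 1.21% of 17492 protein-coding genes, and the ETS letters in 12 of 69 (17.4%), against 10.2%. A match describes letters only and does not show binding, and its absence says nothing of the factor. The NRF1 matches are shown with 10 bases on each side, matched letters in capitals, 5′ to 3′ on the gene's strand.
Ndufa11: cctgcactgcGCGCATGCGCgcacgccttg
Cox6a1: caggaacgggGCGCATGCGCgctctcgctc
Atp5k: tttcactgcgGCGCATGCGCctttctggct
Atp5g2: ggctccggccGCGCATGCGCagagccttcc

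They lie at chr17:56717692-56717721 (plus strand), chr5:115349101-115349130, chr5:108434430-108434459 and chr15:102671070-102671099 (all minus strand). The capitals end 50, 152, 40 and 32 bases before the start site. The genes with these letters stood at 61.8 (Ndufa11), 874 (Cox6a1), 229 (Atp5k) and 74.4 TPM (Atp5g2), so they fell on both sides of the median of the 90 genes. Cox6a1 held the ETS letters as well. CpG pairs numbered 14 in the median promoter of the 69 genes and 11 in that of all protein-coding genes. Cox8b had 1 and Cox7b2 9, both without counts in these cells, and Cox7a1 had 4 and Cox6b2 8. Low numbers also occurred at high levels, as in Ndufc2 with 4 and a level of 256 TPM.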

How the data were processed

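The values that the authors deposited are raw counts of fragments on each gene, from featureCounts 1.4.6-p4 on GENCODE M13 exons, reverse-stranded (setting 2) with both ends mapped, per the file headers, and the labels give mm10. The aligner's version is not given in the sources used here. Reads that map to several places are not counted by featureCounts under the options in the headers, which lowers genes with near-copies. The deposited files also give merged exon lengths, from which TPM was computed over all 50600 rows, of which 50376 matched a symbol in GENCODE M21.

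Libraries were grouped by label into 1 group, and biological replicate numbers came from the labels. Spread was tested with edgeR 4.0.16 (TMM, filterByExpr, robust prior, R 4.3.3), with DESeq2 1.42.0 and limma 3.58.1 as alternatives, and was tested on simulated data. Pairs were tested by an exact sign-flip permutation test on log2(TPM + 0.1). The members and lists were chosen with earlier results of these data known. Named genes are the 3 highest and the lowest of each complex, all genes of pairs, those under 1 TPM in some library, and the 3 smallest and 5 largest coefficients of variation at 5 TPM or more. For the other lists they are the 3 highest and the lowest. Others named (Ndufb2, Ndufb8, Ndufc2, Cox6c, Cox7c, Xist, Atp5k, Atp5s, Ndufa11, Actn2, Ckm, Myh7, the low mitochondrial genes, and the CpG counts of low isoforms) were chosen after their values were seen. Coding identity was computed in place of the protein identity planned, and CpG counts, GC content, principal lengths and shared windows were added after the data were seen. The values of 1 gene of the group, and of the pair it belongs to, are not reported here, though counts and medians include it. Alternatives are in the closing section.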

Additional observations from a re-analysis of the deposited data

Results flagged for a closer look

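Dixon's test, at its 95% critical value, was run on 112 groups of 4 values. These were levels of single genes, medians of a complex or of all genes of the group, and differences of pairs. In 9 groups 1 library was far from the other 3. Chance alone marks about 1 in 20 independent groups, but the medians and differences here reuse the levels of single genes. Levels stood apart for Cox4i2 in replicate 4 (4.12 TPM, next 1.76), Cox6c2 in replicate 1 (1.57 TPM, next 0.287), Ndufa11b in replicate 2 (0.392 TPM, from 3 counts, next 0) and Atp5g2 in replicate 2 (59.3 TPM, next 78.2). Log2 differences stood apart for Cox6b1 and Cox6b2 in replicate 1 (6.63, next 6.96) and for Cox7a2 and Cox7a2l in replicate 1 (0.30, next 0.13). In replicate 2 the differences Atp5g3 minus Atp5g1 (3.35, next 3.03) and Atp5g3 minus Atp5g2 (3.03, next 2.66) stood apart together. The difference Ndufa4 minus Ndufa4l2 was low in replicate 3 (11.11, next 11.21), and since Ndufa4l2 has 0 counts its size depends on the pseudocount.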

How the results depend on the processing

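Of 323 alternative values, 14 were marked as moved. Some were complex medians that moved by more than the SD between library medians. Others were values of the median SD of the genes, marked without that comparison. A further 6 values changed direction. The rest kept their direction and, for tests, their side of the threshold, though sizes of pair differences often moved with the length by more than their SD. In CPM without a length, Cox7a2 minus Cox7a2l was -0.11, Atp5g1 minus Atp5g2 1.17 and Uqcrc1 minus Uqcrc2 0.16. With principal transcript lengths, added after seeing the data, Atp5g1 minus Atp5g2 was 0.73 (shortest) and Uqcrc1 minus Uqcrc2 0.36 (longest and shortest). The other 17 pairs kept their direction under every alternative run, but in CPM Sdhc minus Sdhd was -0.64, Cycs minus Cyc1 -1.93 and Sdha minus Sdhb 1.85. Medians moved with the longest principal transcript to 148 TPM (complex I), 328 TPM (III), 212 TPM (IV) and 334 TPM (V), and with the shortest to 149 TPM (I), 224 TPM (II), 191 TPM (IV) and 303 TPM (V). Over genes at 1 TPM or more in every library the median of complex IV was 276 TPM. The count of genes present was 81 except 78 at 5 TPM and 80 at 1 CPM. No gene of the group was called under any of 12 alternatives, while over all genes edgeR called 98 of 23106 without the filter and 18 of 14003 without replicate 2, against 1 in the main fit. DESeq2 marked 43. Limits are 4 libraries of unstated origin, lengths and near-copies that leave single levels uncertain, and depth, where 3 counts were worth 0.025 to 0.058 CPM. No comparison of conditions, paired or not, was possible because there is only 1 group. Pairs of genes were compared within each library.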
